A study of Mus musculus with 10 samples.

Results

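GABA-A receptors are pentameric chloride channels that open when GABA binds at the interface between an α and a β subunit, and the choice of α, β and γ subunits sets where the receptor sits and how it responds to drugs. In embryonic cortical neurons the intracellular chloride concentration is high, so the opening of these channels depolarizes the cell, and GABA released outside synapses acts on migrating neurons and dividing progenitors before inhibitory synapses form. The 7 genes described here encode subunits α2, α3, α4 and α5 (*Gabra2*, *Gabra3*, *Gabra4*, *Gabra5*), β1 and β2 (*Gabrb1*, *Gabrb2*) and γ3 (*Gabrg3*). They were taken by gene symbol, and all 7 were found among the 14300 genes of the count table. The table holds 14 GABA-A subunit genes in all.

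The libraries came from *Grem1creERT; Rosa26LSLTdtomato* embryos of the c57bl/6j strain, in which a tamoxifen-inducible Cre under *Grem1* control turns on TdTomato in cells that express *Grem1* and in the descendants of those cells. All embryos received tamoxifen through the dam, and cells were sorted 24 hours later into TdTomato+ and TdTomato- populations. The sample descriptions give the tissue as brain, and the methods name the dorsal telencephalon without meninges. There were 5 libraries of each population, and each mouse number from 2 to 6 gave 1 of each kind. Whether a number stands for 1 embryo or for pooled embryos is not given in the sources used here. Both populations carry the same alleles and treatment, so the comparison asks which subunit genes go with *Grem1* lineage cells in the developing cortex.

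Total counts were 23429034 to 27286180 per library. Levels are given in CPM, counts brought to a common library size after TMM scaling. *Grem1* itself lay between 60.7 and 68.4 CPM in TdTomato+ libraries, and between 5.004 and 7.004 CPM in TdTomato- libraries. The TdTomato- population was mixed. Of 12 genes that mark GABAergic interneurons all 12 were lower in TdTomato+ cells, with a summed level of 1819 to 2308 CPM in TdTomato- and 58.5 to 90.9 CPM in TdTomato+ libraries, and all 8 progenitor markers were lower. All 7 markers of cortical excitatory neurons were higher in TdTomato+ cells, with a sum of 7008 to 8395 CPM against 1792 to 2555 CPM. Markers of Cajal-Retzius cells (7 of 7), microglia (5 of 5) and red blood cells (5 of 5) were lower as well. So were 3 of 4 for pericytes, 1 of 2 for endothelium and 1 of 2 for meninges, with no gene of these lists higher. Lower and higher here mean an adjusted p of 0.05 or less (edgeR), as held for 39.4% and 37.9% of all genes. The table keeps only genes above 0.5 CPM in 5 or more libraries. Of the 5 microglia markers, 3 had 3 counts or fewer in every TdTomato+ library. Markers this rare reached that level through TdTomato- libraries, so their place in the table and their decrease are not independent. In sorted bulk samples, fewer cells of a type and less RNA per cell cannot be told apart, and the part of these other cells in the differences given here was not tested.

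Of the 7 subunit genes, 5 were higher and 2 lower in TdTomato+ cells at an adjusted p of 0.05 or less (edgeR quasi-likelihood test with the mouse as a block). *Gabra5*, *Gabrb2*, *Gabra3*, *Gabrb1* and *Gabra2* rose, in this order of size, and *Gabra4* and *Gabrg3* fell. Among all 14300 genes 77.3% passed this threshold, 37.9% higher and 39.4% lower, so passing it is the usual state of a gene in this comparison. *Gabra5* and *Gabrb2* also changed by 2 or more on the log2 scale, as did 12.9% of all genes (3.2% higher and 9.74% lower). The median log2 fold change was 1.21 over the 7 genes and -0.006 over all genes. Each of the 7 genes moved in the same direction in all 5 mice, and for 4 of them the TdTomato+ and TdTomato- libraries did not overlap, as was the case for 61.6% of all genes.

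**Figure D1:**
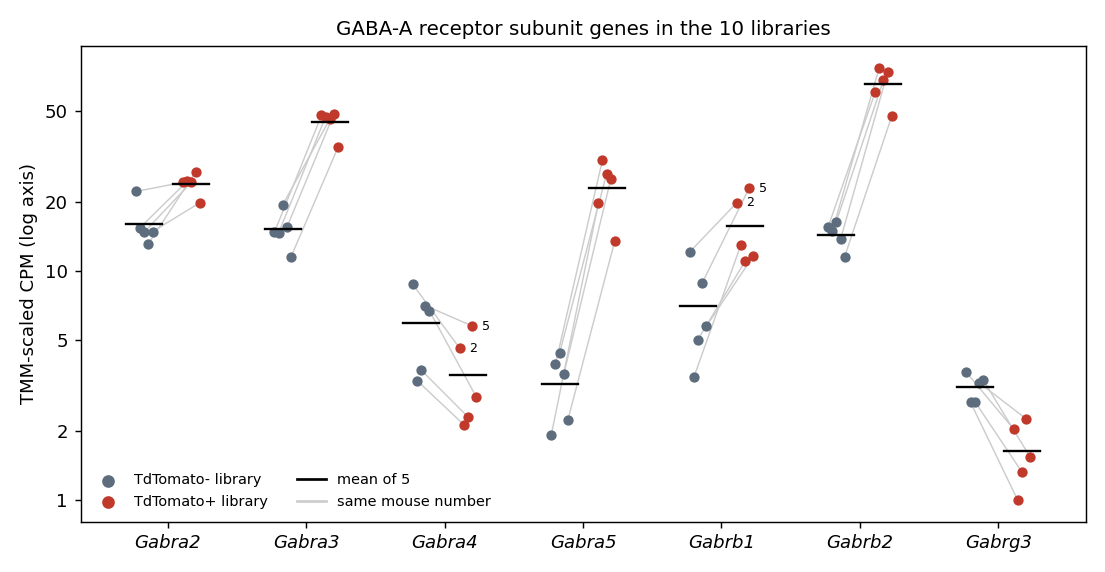
TMM-scaled CPM (log axis) of the 7 subunit genes in the 5 TdTomato- (grey) and 5 TdTomato+ (red) libraries, with libraries of the same mouse number joined and black bars at the means. *Gabra3*, *Gabra5* and *Gabrb2* lie wholly higher and *Gabrg3* wholly lower in TdTomato+ libraries, and the TdTomato+ libraries of mice 2 and 5, marked by number, were the highest for *Gabra4* and *Gabrb1*.

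The α subunits contribute to the GABA site, and together with a γ subunit most of them form the site of classical benzodiazepines. *Gabra5* (ENSMUSG00000055078, minus strand of chromosome 7 in GRCm38, 57407672 to 57510059) encodes α5, which is known from receptors outside synapses that carry tonic current in hippocampal pyramidal neurons. It was at 1.92, 3.91, 4.37, 3.53 and 2.23 CPM in the TdTomato- libraries of mice 2 to 6, and at 19.7, 30.4, 26.5, 25.1 and 13.6 CPM in the TdTomato+ libraries of the same mice. The lowest TdTomato+ library was thus well above the highest TdTomato- library. Mice 3 and 4 were the highest and mice 2 and 6 the lowest in each population. The log2 fold change was 2.86 (s.e. 0.12, adjusted p = 3.7e-08, edgeR), the largest increase of the 7 genes and the 159th largest of all. Another gene model overlaps 4.98% of the exonic length of *Gabra5*.

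*Gabra3* (ENSMUSG00000031343, minus strand of chromosome X, 72432681 to 72656848) encodes α3, a subunit with high expression in fetal brain. Its TdTomato- libraries were at 14.7, 14.6, 19.4, 15.5 and 11.5 CPM for mice 2 to 6, and its TdTomato+ libraries at 47.7, 47.1, 45.9, 48.5 and 34.7 CPM. The populations did not overlap, 4 of the TdTomato+ libraries were close together, and mouse 6 was the lowest in both populations. The log2 fold change was 1.57 (s.e. 0.07, adjusted p = 1.0e-07), and without mouse 6 it was 1.57 (adjusted p = 9.1e-07).

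*Gabra2* (ENSMUSG00000000560, minus strand of chromosome 5, 70957597 to 71095849) encodes α2, which is found at synapses on the axon initial segment of cortical pyramidal neurons in the adult. It was at 22.2, 15.4, 14.8, 13.2 and 14.8 CPM in the TdTomato- and at 24.3, 24.6, 24.4, 27.0 and 19.8 CPM in the TdTomato+ libraries of mice 2 to 6. The populations overlapped, because the TdTomato- library of mouse 2 was above the TdTomato+ library of mouse 6. The log2 fold change was 0.59 (s.e. 0.12, adjusted p = 0.0013), the smallest of the 5 increases, and the difference within a mouse ran from 0.13 to 1.03 on the log2 scale.

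*Gabra4* (ENSMUSG00000029211, minus strand of chromosome 5, 71569749 to 71658308) encodes α4, which forms receptors that do not bind classical benzodiazepines and that lie mostly outside synapses. It was at 8.72, 3.32, 3.69, 7.05 and 6.69 CPM in the TdTomato- and at 4.58, 2.13, 2.30, 5.74 and 2.80 CPM in the TdTomato+ libraries of mice 2 to 6. It was lower in the TdTomato+ library of every mouse, but the mice differed by more than the populations did, and the populations overlapped. With the mouse as a block the log2 fold change was -0.76 (s.e. 0.15, adjusted p = 0.0014). Without the block it was -0.75 and the call was lost (adjusted p = 0.06), so the decrease of *Gabra4* rests on comparing the populations within mice. Among the TdTomato- libraries, mice 2, 5 and 6 were the highest for *Gabra4* and also for the summed markers of microglia (43.9 to 58.6 CPM, the others 12.6 and 16.9), pericytes (16.96 to 18.78 CPM, the others 11.55 and 12.99) and red blood cells (109 to 258 CPM, the others 74.2 and 103). The interneuron sum was also highest in these mice (1856 to 2308 CPM, the others 1819 and 1843). The sums for Cajal-Retzius cells (231 to 296 CPM, the others 369 and 433) and meninges (1.88 to 2.50 CPM, the others 2.90 and 5.29) were lowest. Those for excitatory neurons, progenitors and endothelium did not set these mice apart. The part of all these cells in the *Gabra4* values was not tested.

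The β subunits carry the other face of the GABA site and a binding site for general anaesthetics. *Gabrb2* (ENSMUSG00000007653, plus strand of chromosome 11, 42419757 to 42629028) encodes β2, which is common in the adult cortex. It was at 15.5, 14.9, 16.4, 13.7 and 11.5 CPM in the TdTomato- and at 60.2, 77.2, 68.0, 73.5 and 47.3 CPM in the TdTomato+ libraries of mice 2 to 6. The lowest TdTomato+ library was far above the highest TdTomato- library. The log2 fold change was 2.17 (s.e. 0.08, adjusted p = 2.2e-08), and the increase within a mouse was at least 3.86-fold.

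*Gabrb1* (ENSMUSG00000029212, plus strand of chromosome 5, 71658113 to 72149037) encodes β1. Its TdTomato- libraries were at 12.1, 3.42, 5.01, 8.84 and 5.71 CPM for mice 2 to 6, and its TdTomato+ libraries at 19.8, 12.97, 10.99, 22.96 and 11.6 CPM. Mice 2 and 5 were the highest in both populations, and the TdTomato- library of mouse 2 was above the TdTomato+ libraries of mice 4 and 6. The log2 fold change was 1.21 (s.e. 0.15, adjusted p = 7.4e-05), and it ran from 0.71 to 1.90 within mice.

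*Gabrg3* (ENSMUSG00000055026, minus strand of chromosome 7, 56716465 to 57387188) encodes γ3, a rarer member of the γ class, whose subunits link receptors to the synaptic scaffold. It was the least abundant of the 7 genes, with 23 to 96 counts per library. It was at 3.60, 2.66, 2.69, 3.25 and 3.35 CPM in the TdTomato- and at 2.04, 0.998, 1.32, 2.26 and 1.54 CPM in the TdTomato+ libraries of mice 2 to 6. All TdTomato+ libraries were below all TdTomato- libraries. The log2 fold change was -0.96 (s.e. 0.17, adjusted p = 6.3e-04).

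Among the other 7 subunit genes of the table, 4 were higher and 3 lower in TdTomato+ cells, which gives 9 higher and 5 lower of all 14 (37.9% and 39.4% of all genes). The smallest of the 4 increases was 1.35 on the log2 scale, and no value is given for the largest, whose TdTomato- level was near the limit of 3 counts. The 3 that fell encode γ1, ε and θ, and all were rare. *Gabrg1* fell from 1.60 ± 0.340 (SD, n = 5) to 0.784 ± 0.374 CPM, *Gabre* from 1.77 ± 0.581 to 0.353 ± 0.205 CPM, and *Gabrq* from 2.59 ± 0.551 to 0.986 ± 0.524 CPM. Their log2 fold changes were -1.06 (s.e. 0.28, adjusted p = 0.0067), -2.30 (s.e. 0.45, adjusted p = 0.0012) and -1.45 (s.e. 0.24, adjusted p = 4.8e-04). The TdTomato+ library of mouse 2 held 0 counts of *Gabre*, and 3 counts, the limit that a count of 0 allows, come to 0.136 CPM in that library. The lowest TdTomato+ libraries of *Gabrg1*, *Gabre* and *Gabrq* were at 0.316, 0 and 0.452 CPM. These lie below the minimum level of the table, 0.5 CPM in 5 libraries. The 3 genes reached it with their TdTomato- libraries, so their place in the table and their decreases are not independent. The largest of the 4 increases reached it through TdTomato+ libraries, so the counts of 9 higher and 5 lower carry the same limit.

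**Figure D2:**
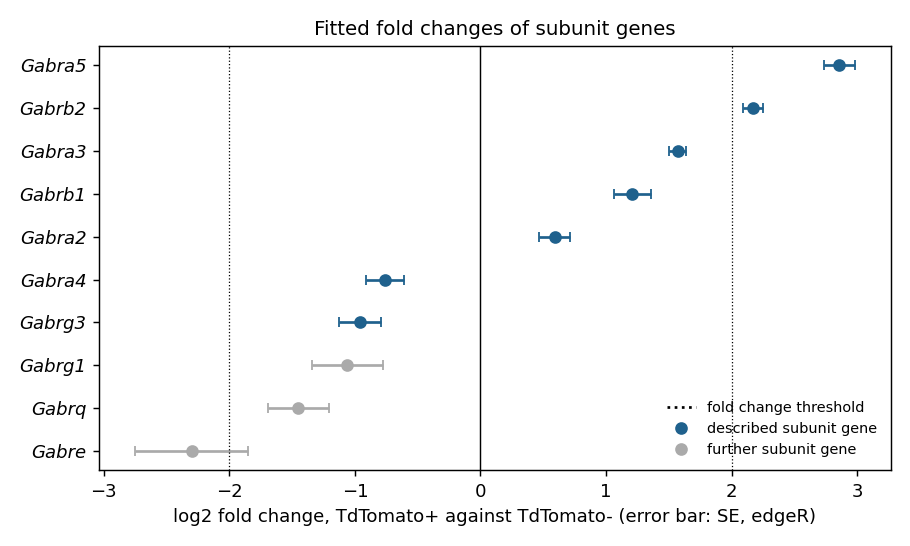
Fitted log2 fold changes (x axis, TdTomato+ against TdTomato-) with standard errors from edgeR for the 7 described subunit genes (blue) and *Gabrg1*, *Gabrq* and *Gabre* (grey), and dotted lines at the fold change threshold of 2. The values run from 2.86 for *Gabra5* to -2.30 for *Gabre*, and *Gabra4* and *Gabrg3* lie below 0 among the described genes.

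Levels of different genes can be set side by side only per length, so each count was divided by the exonic length of its gene and expressed as a share of the sum over the 7 genes in the same library. In TdTomato+ cells *Gabra3* held 33.4% ± 2.27 (SD, n = 5), *Gabrb2* 29.8% ± 1.12, *Gabra5* 22.2% ± 3.39, *Gabra2* 9.23% ± 0.794, *Gabrb1* 3.31% ± 0.979, *Gabra4* 1.69% ± 0.691 and *Gabrg3* 0.408% ± 0.137. In TdTomato- cells the shares were 34.9% ± 4.07 for *Gabra3*, 20.5% ± 1.299 for *Gabrb2*, 19.1% ± 3.40 for *Gabra2*, 9.76% ± 3.08 for *Gabra5*, 8.84% ± 3.44 for *Gabra4*, 4.53% ± 1.94 for *Gabrb1* and 2.39% ± 0.439 for *Gabrg3*. The mixture thus held more α5 and β2 and less α2, α4 and γ3 transcript in TdTomato+ cells. The difference was 12.4 percentage points for *Gabra5* and 9.26 for *Gabrb2*, and -9.86 for *Gabra2*, -7.15 for *Gabra4* and -1.98 for *Gabrg3*, without overlap between the populations for these 5 genes. Each of these 5 shares moved in the same direction in all 5 mice, for which the exact two-sided sign-flip p is 0.0625, the smallest that 5 pairs allow.

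By class, the α genes together held 66.5% ± 0.902 in TdTomato+ and 72.6% ± 1.16 in TdTomato- cells, and the β genes 33.1% ± 0.881 and 25.05% ± 1.08, again without overlap. The lower α share depends on the denominator: over all 14 subunit genes of the table the same 4 α genes held 24.8% ± 1.65 and 24.6% ± 0.918, which overlapped, and the β genes 12.3% ± 0.822 and 8.49% ± 0.723. The share of *Gabra2* fell although its level rose, since the other increases were larger. The share of *Gabra3* differed by -1.48 ± 5.89 points (SD over 5 mice, lower in 3 and higher in 2, exact sign-flip p = 0.688), and that of *Gabrb1* by -1.23 ± 1.05 points (lower in 4 of 5 mice, exact sign-flip p = 0.125). With 5 mice these p-values cannot show that the shares are alike. The sign for *Gabra3* turned with plain counts (1.80 points), per coding length (1.78 points) and over all 14 subunit genes (0.622 points). The size of some shares also depends on the length: in TdTomato+ cells *Gabra5* was at 12.8% with plain counts and 13.8% per coding length, and *Gabrb1* at 8.78% and 9.23%. Within the 4 α genes, *Gabra5* made up 33.4% ± 5.05 in TdTomato+ and 13.4% ± 4.10 in TdTomato- cells, and *Gabra4* 2.55% ± 1.06 and 12.2% ± 4.87. Within the 2 β genes *Gabrb2* made up 90.0% ± 2.91 in TdTomato+ and 82.1% ± 7.02 in TdTomato- cells, and these libraries overlapped. Within mice this share was higher in TdTomato+ cells in all 5, by 7.94 points on average (exact sign-flip p = 0.0625). Over all 14 subunit genes of the table the 7 described here held 37.3% ± 2.34 in TdTomato+ and 33.9% ± 1.62 in TdTomato- cells, so most of the subunit transcript per length came from genes outside the 7.

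**Figure D3:**
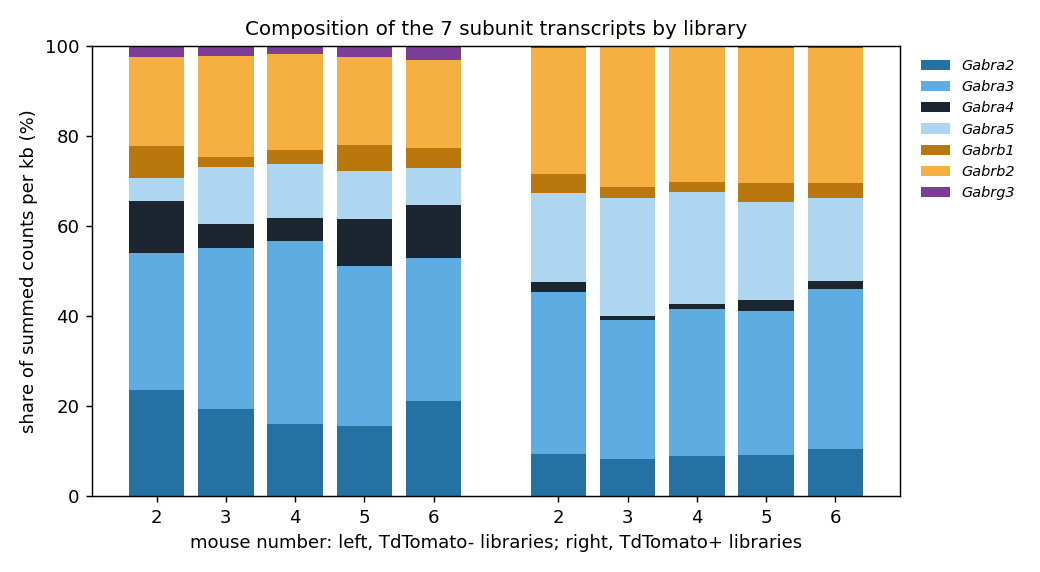
Share (%) of each of the 7 genes in their summed counts per kb of exonic length, a stacked bar for each library, with TdTomato- libraries on the left and TdTomato+ libraries on the right by mouse number. The bars of *Gabra5* and *Gabrb2* are larger and those of *Gabra2*, *Gabra4* and *Gabrg3* smaller in every TdTomato+ library than in any TdTomato- library, and *Gabra3* is at 30.4% to 40.8% throughout.

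The order of the levels per kb of exonic length differed between the populations. In TdTomato+ cells it ran from *Gabra3* (11.4 CPM per kb) over *Gabrb2* (10.3), *Gabra5* (7.75), *Gabra2* (3.14), *Gabrb1* (1.13) and *Gabra4* (0.577) to *Gabrg3* (0.137 CPM per kb). Per exonic length, every step but the first held in all 5 libraries. *Gabra3* was above *Gabrb2* in 4 of 5 libraries, by 1.15 ± 1.03 CPM per kb (SD, exact sign-flip p = 0.125), so the order of this pair is not settled. In TdTomato- cells it ran from *Gabra3* (3.86 CPM per kb) over *Gabrb2* (2.27), *Gabra2* (2.11), *Gabra5* (1.07), *Gabra4* (0.969) and *Gabrb1* (0.507) to *Gabrg3* (0.260 CPM per kb). There *Gabrb2* and *Gabra2* differed by 0.16 ± 0.45 CPM per kb (exact sign-flip p = 0.5) and *Gabra5* and *Gabra4* by 0.104 ± 0.712 (exact sign-flip p = 0.75), both less than the SD between mice. Per exonic length *Gabrb1* was below *Gabra4* in all 5 TdTomato- libraries and above it in all 5 TdTomato+ libraries. This crossing depends on the length, since in TdTomato- cells *Gabrb1* was above *Gabra4* with plain counts (shares of 10.5% and 9.03%) and per coding length (11% and 7.75%). Other places depend on it too. Per coding length in TdTomato+ cells, *Gabrb2* (35.6%) was above *Gabra3* (23.6%), and *Gabra2* (15.0%) above *Gabra5* (13.8%). In TdTomato- cells *Gabra2* (27.2%) was then above *Gabra3* (21.9%), and *Gabra5* (5.39%) was below *Gabra4* and *Gabrb1*.

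*Gabra4* and *Gabrb1* are neighbours that are transcribed away from a shared start region. In the GENCODE annotation the 5′ ends of the gene models overlap by 196 bases. Of the exonic length, 0.76% of *Gabra4* and 0.33% of *Gabrb1* lies in exons of the other gene. The RefSeq starts are placed so that both transcripts share 388 bases. The pair belongs to a group of subunit genes on chromosome 5 that spans 1398 kb. In map order *Gabrg1* comes first, then *Gabra2* after 115 kb and *Gabra4* after another 474 kb. The only other protein-coding gene between *Gabrg1* and *Gabrb1*, *Cox7b2*, was not among the genes of the table. The promoter windows of the pair (RefSeq on GRCm38.p6, 250 bases before to 50 after the start, 5′ to 3′ on the strand of the gene) are shown because these adjoining genes went in opposite directions. Capitals mark each CG dinucleotide.
Gabra4 (chr5:71658259-71658558, minus strand): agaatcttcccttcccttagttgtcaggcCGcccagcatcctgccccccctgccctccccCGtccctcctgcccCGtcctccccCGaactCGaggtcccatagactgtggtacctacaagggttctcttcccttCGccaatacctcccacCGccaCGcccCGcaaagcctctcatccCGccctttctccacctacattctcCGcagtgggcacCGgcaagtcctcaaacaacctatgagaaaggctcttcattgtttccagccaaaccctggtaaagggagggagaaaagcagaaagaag
Gabrb1 (chr5:71657671-71657970, plus strand): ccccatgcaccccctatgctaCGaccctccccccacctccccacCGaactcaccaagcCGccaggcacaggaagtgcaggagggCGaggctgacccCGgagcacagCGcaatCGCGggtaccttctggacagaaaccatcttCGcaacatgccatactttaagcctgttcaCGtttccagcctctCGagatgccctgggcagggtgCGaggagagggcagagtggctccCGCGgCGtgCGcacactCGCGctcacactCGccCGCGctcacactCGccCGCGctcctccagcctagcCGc

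The *Gabra4* window holds 12 CG dinucleotides and the *Gabrb1* window shown 25 (the second *Gabrb1* window, at a later start, holds 9), where the median of 32851 promoter windows of mouse genes is 7. The other genes ranged from 0 in both windows of *Gabra3* to 25 in that of *Gabra2*. The ratio of *Gabrb1* to *Gabra4* counts was 1.39, 1.03, 1.36, 1.25 and 0.854 in the TdTomato- libraries of mice 2 to 6 and 4.33, 6.10, 4.79, 4.00 and 4.15 in the TdTomato+ libraries. The populations were far apart and the mice close together in this ratio, whereas the level of each gene varied more between mice. The ratio was 3.99-fold higher in TdTomato+ cells (log2 difference 2.00 ± 0.407, SD over 5 mice). No test is given for it, since *Gabrb1* was higher and *Gabra4* lower in every mouse and the ratio had to follow. The coefficient of variation between libraries was 45.1% in TdTomato+ and 39.3% in TdTomato- cells for *Gabra4*, and 34.3% and 49.2% for *Gabrb1*, and for the other 5 genes it ran from 10.9% to 31.7% in TdTomato+ and from 13.1% to 33.5% in TdTomato- cells. In TdTomato+ cells, mice 5 and 2 were also the highest for *Gabrg3*, whereas for *Gabra5* mice 3 and 4 were higher. Marker sums also set mice 2 and 5 apart. The excitatory neuron sum was lowest in these mice in both populations (1792 and 2094 CPM against 2339 to 2555 in TdTomato-, 7008 and 7413 CPM against 7687 to 8395 in TdTomato+ libraries). In TdTomato- libraries their Cajal-Retzius sum was the lowest (235 and 231 CPM, the others 296 to 433) and their interneuron sum the highest (2308 and 2159 CPM, the others 1819 to 1856), whereas in TdTomato+ libraries the interneuron sum did not set them apart (64.3 and 77.9 CPM, the others 58.5 to 90.9). The part of these cells in the variation between mice was not tested.

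**Figure D4:**
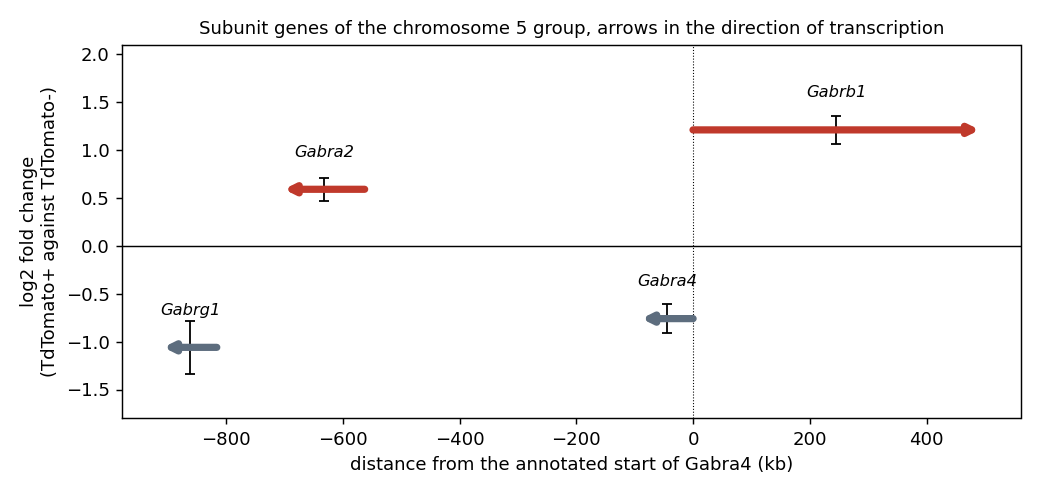
Subunit genes of the chromosome 5 group by distance from the annotated start of *Gabra4* (x axis, kb) and by log2 fold change (y axis, with standard error), as arrows in the direction of transcription. *Gabrb1* (1.21) and *Gabra4* (-0.76) start side by side, point away from each other and lie on opposite sides of 0. *Gabra2* (0.59) and *Gabrg1* (-1.06), both on the minus strand, also differ in sign.

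*Gabra5* and *Gabrg3* are also neighbours, 20.5 kb apart on the minus strand of chromosome 7, and went in opposite directions (2.86 and -0.96 on the log2 scale). Promoter windows were searched on both strands for the E-box letters CAGATG and CAGCTG, which basic helix-loop-helix factors of the NeuroD kind can bind, and for the T-box letters AGGTGT, a core bound by factors such as Tbr1. The letters occur in 17.2%, 16.3% and 13.7% of the 32851 windows. All 7 genes matched a window, and *Gabra5*, *Gabrb1* and *Gabrb2* held any of these letters. *Gabrb1* held them only in the second of its 2 windows and *Gabrb2* only in the first of its 3. The shares are per window and for each motif alone, so they are not a background for this count of genes. The windows of *Gabra5* and *Gabrb2*, the pair past both thresholds, are shown with the matches in capitals. *Gabra5* holds CAGATG 223 bases and AGGTGT 202 bases before the start, and the first *Gabrb2* window holds AGGTGT 130 bases before it, each counted to the first letter of the match and AGGTGT in both cases as its reverse complement ACACCT. A match is a description of letters and does not show a bound site.
Gabra5 (chr7:57510010-57510309, minus strand): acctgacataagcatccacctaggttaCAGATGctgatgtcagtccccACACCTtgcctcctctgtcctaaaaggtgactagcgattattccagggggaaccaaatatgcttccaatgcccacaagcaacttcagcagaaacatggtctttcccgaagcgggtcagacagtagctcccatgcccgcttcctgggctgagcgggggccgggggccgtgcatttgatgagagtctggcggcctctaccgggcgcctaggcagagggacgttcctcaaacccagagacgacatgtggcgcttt
Gabrb2 (chr11:42420190-42420489, plus strand): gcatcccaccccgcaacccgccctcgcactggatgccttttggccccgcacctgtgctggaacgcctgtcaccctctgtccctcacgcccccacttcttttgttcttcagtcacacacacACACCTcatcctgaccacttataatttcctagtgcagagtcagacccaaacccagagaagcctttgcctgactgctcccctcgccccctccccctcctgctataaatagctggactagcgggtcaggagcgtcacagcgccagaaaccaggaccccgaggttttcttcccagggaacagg

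For each subunit gene, the genes of the table with the most similar pattern were taken as those with the smallest root mean square difference in centred log2 CPM over the 10 libraries. Closest to *Gabra3* was *Rab3c* (difference 0.12), a small GTPase of secretory vesicles, with 452 ± 38.7 CPM against 157 ± 18.5 CPM in TdTomato- libraries. Closest to *Gabra2* was *Nemp2* (0.112), to *Gabrb2* the predicted gene *Gm8773* (0.125), and to *Gabra4* *Gucy1a1* (0.262), a subunit of soluble guanylate cyclase, which was at 47.0 ± 20.6 and 73.4 ± 22.6 CPM. *Ppp2r2c*, a regulatory subunit of protein phosphatase 2A, was second closest to *Gabra5* (0.24, log2 fold change 2.83), and *Stbd1* second closest to *Gabrg3* (0.135). Closest to *Gabrb1* was *Gm9884* (0.289), at under 1 CPM on average. The 10 libraries behind each difference fall into the same 2 populations and 5 mice.

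Genes of the wider GABA pathway were taken from lists. Of 23 genes for anchoring and trafficking of GABA-A receptors, 16 were higher, 4 lower and 3 not past the threshold (of all genes 37.9% were higher and 39.4% lower), with a median log2 fold change of 0.26. *Shisa7*, an auxiliary subunit that speeds receptor kinetics, rose from 110 ± 15.2 to 330 ± 41.1 CPM (1.59, s.e. 0.05, adjusted p = 1.2e-08). *Nlgn2*, an adhesion protein of inhibitory synapses, rose by 0.47 on the log2 scale. *Gphn*, the scaffold gephyrin, was nearly level at 48.2 ± 2.04 and 44.2 ± 1.91 CPM (0.13, s.e. 0.05, adjusted p = 0.04). Past both thresholds were *Dbi*, which encodes a peptide that acts at the benzodiazepine site and binds acyl-CoA (-3.72, s.e. 0.13), and *Hap1*, a trafficking adaptor (-2.16, s.e. 0.10). *Rdx*, whose product radixin anchors α5 receptors, fell from 226 ± 12.7 to 105 ± 6.20 CPM (adjusted p = 1.8e-08), opposite in direction to *Gabra5*.

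Of 9 genes for GABA synthesis, transport and chloride cotransport, 7 were lower, 1 higher and 1 not past the threshold (39.4% of all genes were lower), with a median of -2.03. Of the decreases 5 were past both thresholds, as were those of 9.74% of all genes. Among these were *Gad1* (-3.86, s.e. 0.09) and *Gad2* (-4.16), which encode the enzymes that make GABA, and *Slc32a1*, the vesicular GABA transporter (-3.95, s.e. 0.12). *Slc12a5*, the chloride exporter KCC2, was the gene that rose, from 22.9 ± 5.76 to 28.8 ± 7.18 CPM (0.33, s.e. 0.07, adjusted p = 0.0025). *Gad1*, *Gad2* and *Slc32a1* are also among the 12 interneuron markers, all of which were lower in TdTomato+ cells (median -4.71). The part of interneurons in the decrease of these genes was not tested.

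**Figure D5:**
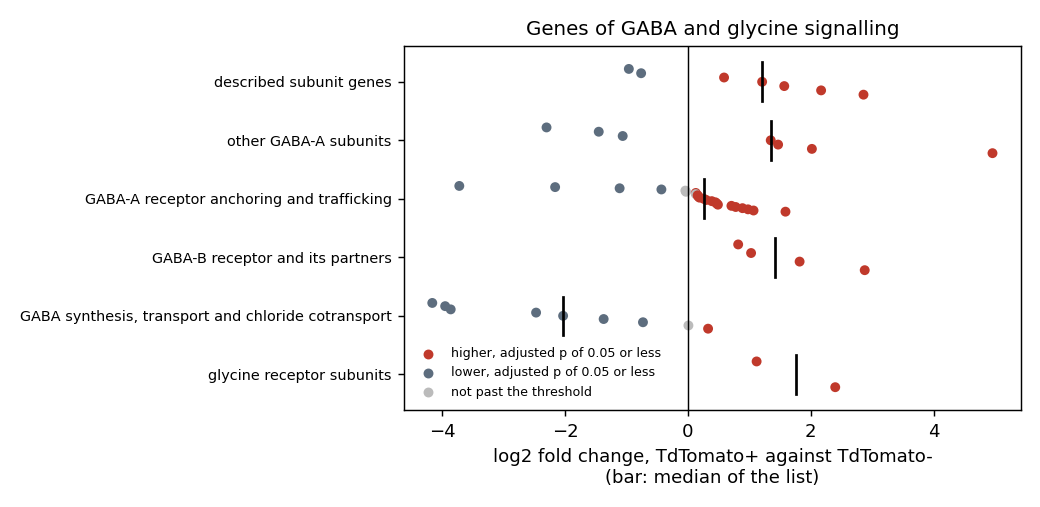
Log2 fold changes (x axis, TdTomato+ against TdTomato-) of the genes of each list (rows), each point a gene, red where higher and grey-blue where lower at an adjusted p of 0.05 or less, with black bars at the medians. The median was 1.21 for the described subunit genes, 0.26 for anchoring and trafficking, and -2.03 for synthesis, transport and chloride cotransport. The rightmost point is a gene near 3 counts in TdTomato- libraries, so its place depends on the prior count.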

How the data were processed

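Reads had been trimmed for adaptors and quality (Phred limit 28) and mapped by the authors to GRCm38 with STAR 2.4.2a, with 1 mismatch allowed and unique hits kept. The deposited values of the 10 libraries are raw counts per gene with no normalization. Tamoxifen was given at 13.5 and cells were collected at 14.5 days post coitum. Neither the annotation release nor the strandedness of the counting is given in the sources used here, so counts of overlapping genes are uncertain. Every gene of the table exceeds 0.5 CPM in 5 or more libraries, so rarer genes are not analysed here.

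The test was the quasi-likelihood test of edgeR 4.0.16 (R 4.3.3) after TMM scaling and filterByExpr, which removed 0 genes, with the mouse as a block, since the study describes paired comparisons, and a prior count of 0.125, with Benjamini-Hochberg adjustment over 14300 genes. Scaling factors lay between 1.06 and 1.07 for TdTomato- and between 0.929 and 0.946 for TdTomato+ libraries. Same-numbered libraries deviated together (correlation across genes of 0.186 to 0.316 for the 5 mice), so the numbers were taken as pairs. Libraries of one population differed beyond sampling noise (chi-square per degree of freedom 4.46 to 32.0). P-values from the fit with the mouse block set the difference between populations against the spread that remains within mice, which may be partly technical. Levels are TMM-scaled CPM, log2 CPM used a prior count of 2, and lengths, positions and overlaps are from GENCODE M21 on GRCm38, whose symbols matched 14271 identifiers. The limit of 3 counts covers counting error only. On simulated counts for this comparison, 98% of 198 tested genes with a planted log2 change of 1 were called, and 9 unchanged genes, of 14270 tested. The simulated counts had the same dispersion for every gene, no differences between mice and few changed genes. These rates therefore do not carry over to the real libraries or to genes that vary more between mice.

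The genes and lists were chosen with earlier results of these data known. Named genes were the 7 subunits, the 2 genes nearest to each in pattern, the other subunit genes and, from pathway lists, genes past both thresholds and up to 4 examples. Some genes covered by this rule are not reported here by name but stay in the counts. Protein sequences were not compared here. Alternatives were DESeq2 1.42.0, upper-quartile or RLE normalization, a filter at 1 CPM or none, no block, prior count 2, robust estimation, TREAT, each mouse left out, and for shares other lengths and denominators.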

Additional observations from a re-analysis of the deposited data

Results flagged for a closer look

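In 3 of 20 groups of 5 libraries, taken over the 7 subunit genes and *Gabrg1*, *Gabre* and *Gabrq* in log2 CPM, 1 library stood away from the other 4: the gap between it and the closest of them exceeded 0.71 of the whole range. Chance gives about 1 such group. For *Gabra3* the TdTomato+ library of mouse 6 was the lowest (ratio of gap to range 0.836), at 34.7 CPM against 45.9 to 48.5 CPM in the others. For *Gabre* the TdTomato+ library of mouse 2 was the lowest (ratio 0.872), with 0 counts against 9 to 12 in the others. For *Gabrg1* the TdTomato- library of mouse 5 was the lowest (ratio 0.719), with 26 counts against 41 to 55 in the others.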

How the results depend on the processing

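Of 84 fold changes of the 7 subunit genes under alternatives that can move the adjusted p, 77 kept their direction and their side of the threshold, 7 lost the call and none reversed. The absent filter and the prior count of 2 leave the adjusted p as it is by construction. Without the mouse block, *Gabra4* lost its call (adjusted p = 0.0605, against 6.9e-04 with DESeq2), the block changed no other call among the 7, and 10674 genes passed the adjusted p, 1846 of them with the fold change. TREAT, which tests against an absolute log2 fold change of 2 in place of 0, called 1350 genes in place of 11056 and of the 7 *Gabra5* alone (*Gabrb2* adjusted p = 0.078). When single mice were left out, the log2 fold changes were 2.76 to 2.93 for *Gabra5*, 2.11 to 2.22 for *Gabrb2*, -0.89 to -0.63 for *Gabra4* and -1.08 to -0.86 for *Gabrg3*. The share of *Gabra3* was 25.3% (TdTomato+) and 23.5% (TdTomato-) with plain counts, 23.6% and 21.9% per coding length, and 12.4% and 11.8% over all 14 subunit genes. With plain counts or coding length the largest share was that of *Gabrb2* in TdTomato+ (36.6% and 35.6%) and of *Gabra2* in TdTomato- cells (24.8% and 27.2%), because exonic lengths in the annotation run from 2974 to 13838 bases, and the directions of the other 6 shares did not change. Genes with few counts, such as *Gabrg3* and *Gabre*, carry the most counting error.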

Other observations

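Receptors of related kinds were also described from lists. All 4 genes of the GABA-B receptor list in the table were higher in TdTomato+ cells, with a median log2 fold change of 1.42 (37.9% of all genes were higher). *Gabbr1* and *Gabbr2*, whose products form this G-protein-coupled receptor, rose from 303 ± 20.7 to 619 ± 29.0 CPM and from 20.2 ± 3.48 to 71.7 ± 16.99 CPM (SD, n = 5). *Kctd12*, an auxiliary subunit that speeds desensitization, rose from 39.3 ± 5.24 to 314 ± 141 CPM (log2 fold change 2.88, s.e. 0.21, adjusted p = 1.6e-06, edgeR), with a wide spread between TdTomato+ libraries.

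The glycine receptor is the closest relative of the GABA-A receptor, and 2 of its 5 subunit genes were in the table. *Glra2*, the α subunit of the fetal receptor, rose from 27.8 ± 3.66 to 150 ± 37.6 CPM (log2 fold change 2.4, s.e. 0.13, adjusted p = 2.6e-07). *Glrb*, the β subunit, rose from 11.9 ± 1.60 to 25.9 ± 3.94 CPM (by 1.12, s.e. 0.08, adjusted p = 1.1e-06).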
